A study of Mus musculus with 8 samples.

Results

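The endoplasmic reticulum (ER) folding and unfolded protein response genes were a set of 33 genes chosen by name, and each was looked up by its symbol among the 27179 entries of the deposited count table. All 33 were found, and 32 of them passed the filter on low counts, under which a gene had to exceed 0.5 CPM (counts per 1000000 reads) in at least 6 of 8 libraries. The libraries were bulk RNA-seq of EpCAM+ epithelial cells that flow cytometry had isolated from tumors of the gastric antrum, 1 library per mouse. Of these, 4 libraries came from Gp130FF; Yap1KO mice and 4 from Gp130FF; Yap1WT mice. All mice carried Gp130FF, a mutation of the cytokine receptor gp130 that drives STAT3 signalling and antral tumors. The labels and the methods gave the age of the mice as 18 weeks, whereas the study's results text gave an older age. In Yap1KO mice an exon of the floxed Yap1 gene, which encodes the transcriptional co-activator YAP1, was deleted by Tff1:CreERT2, a tamoxifen-inducible recombinase that acts only in cells using the Tff1 promoter. The labels placed both groups 3 days after tamoxifen and called the controls Yap1WT, whereas the methods described the controls as floxed mice given vehicle, so that an effect of tamoxifen itself and the loss of Yap1 cannot be told apart. In bulk libraries of this kind, fewer cells of a type and less RNA per cell cannot be told apart either.

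Secreted and membrane proteins fold in the ER, where chaperones of the HSP70 and HSP90 families, lectin chaperones and protein disulfide isomerases assist them, and proteins that fail are returned to the cytosol by ER-associated degradation (ERAD). When unfolded proteins accumulate, 3 sensors in the ER membrane act: IRE1 splices the mRNA of XBP1, PERK phosphorylates eIF2α and so favours translation of ATF4 and then CHOP, and ATF6 is cut in the Golgi to release a transcription factor. XBP1 and ATF6 raise chaperone and ERAD genes largely through ER stress elements near their starts. Mucus-secreting cells of the stomach and gut carry additional parts of this machinery, among them IRE1β (Ern2) and the disulfide isomerase AGR2, which takes part in mucin production. RNA levels per gene show neither the splicing of Xbp1, nor phosphorylation, nor cleavage.

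Total counts per library were 18229945 to 74278015 in Yap1KO and 27607755 to 77483047 in Yap1WT. Yap1 itself had 21.3, 27.6, 29.7 and 24.2 CPM in Yap1KO mice 1 to 4 and 77.1, 64.2, 78.0 and 72.5 CPM in Yap1WT mice 1 to 4, a log2 fold change of -1.51 (SE 0.13) with an adjusted p of 0.000208 by edgeR's quasi-likelihood test with Benjamini-Hochberg adjustment over all 13495 genes tested. Unless another setting is named, later adjusted p-values come from this edgeR fit, and values per mouse are listed in the order of replicates 1 to 4. Epithelial markers were abundant in both groups, their 9 genes summing to 9319 to 11902 CPM in Yap1KO and 9922 to 11926 CPM in Yap1WT, with Krt8 (-0.20) and Krt19 (-0.42, log2 fold changes) the most abundant. Of the 9, 6 lay above 0 and 3 below (median log2 fold change 0.48), and 4 were higher and 1 lower at an unadjusted p under 0.05. By edgeR 2 were called higher in Yap1KO, Epcam and Cldn4 (log2 fold change 2.54). Epcam, the gene of the sorting marker, averaged 1653 ± 100 CPM in Yap1KO and 977 ± 47.0 CPM in Yap1WT (SD, n = 4 each). Of 12 endothelial markers all 12 lay above 0 (median log2 fold change 1.24), 10 had an unadjusted p under 0.05 and 1 was called higher in Yap1KO, a count that was 8 without Yap1WT replicate 4, and they summed to 637 to 1282 CPM in Yap1KO and 194 to 696 CPM in Yap1WT, with Plvap (1.39) and Pecam1 (1.22, log2 fold changes) the most abundant. Mast cell markers, of which 1 of 3 tested was higher, summed to 312 to 811 CPM in Yap1KO and 51.7 to 264 CPM in Yap1WT, without overlap, with Mcpt2 (2.44) and Mcpt1 (2.57) the most abundant. Of 14 fibroblast markers 13 lay above 0 (median 0.99) and 0 were called by edgeR (2 higher at an unadjusted p under 0.05), and they summed to 519 to 1564 CPM in Yap1KO and 192 to 1166 CPM in Yap1WT, with overlap, with Col3a1 (1.05) and Sparc (1.24) the most abundant. The part of these cells in the values of the members was not tested.

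Calls among the members were read beside the shares of all genes called. At an adjusted p under 0.05, 2 of the 32 members tested were higher in Yap1KO, Agr2 and Creb3l4, and 1 was lower, Ern2. Across all 13495 genes tested, 5.87% were called in either direction, 3.53% higher and 2.34% lower. Whether the share of members called differs from that of all genes was not tested. At an unadjusted p under 0.05, 7 members were higher and 1 was lower, where 11.5% of all genes were higher and 8.97% lower. The fold changes of 25 members lay above 0 and those of 7 below, and the median log2 fold change of the 32 was 0.17, against -0.01 over all genes. For 8 members every Yap1KO mouse was above every Yap1WT mouse, which held for 7.19% of all genes, and for 1 member every Yap1KO mouse was below, which held for 6.01%. Of the 29 members not called, 20 had a 95% interval of the log2 fold change wholly within 0.5 of 0. The intervals of the other 9 reached further, and these were Eif2ak3, Creb3l1, Ddit3, Dnajb9, Creld2, Edem1, Trib3, Chac1 and Ppp1r15a.

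**Figure D1:**
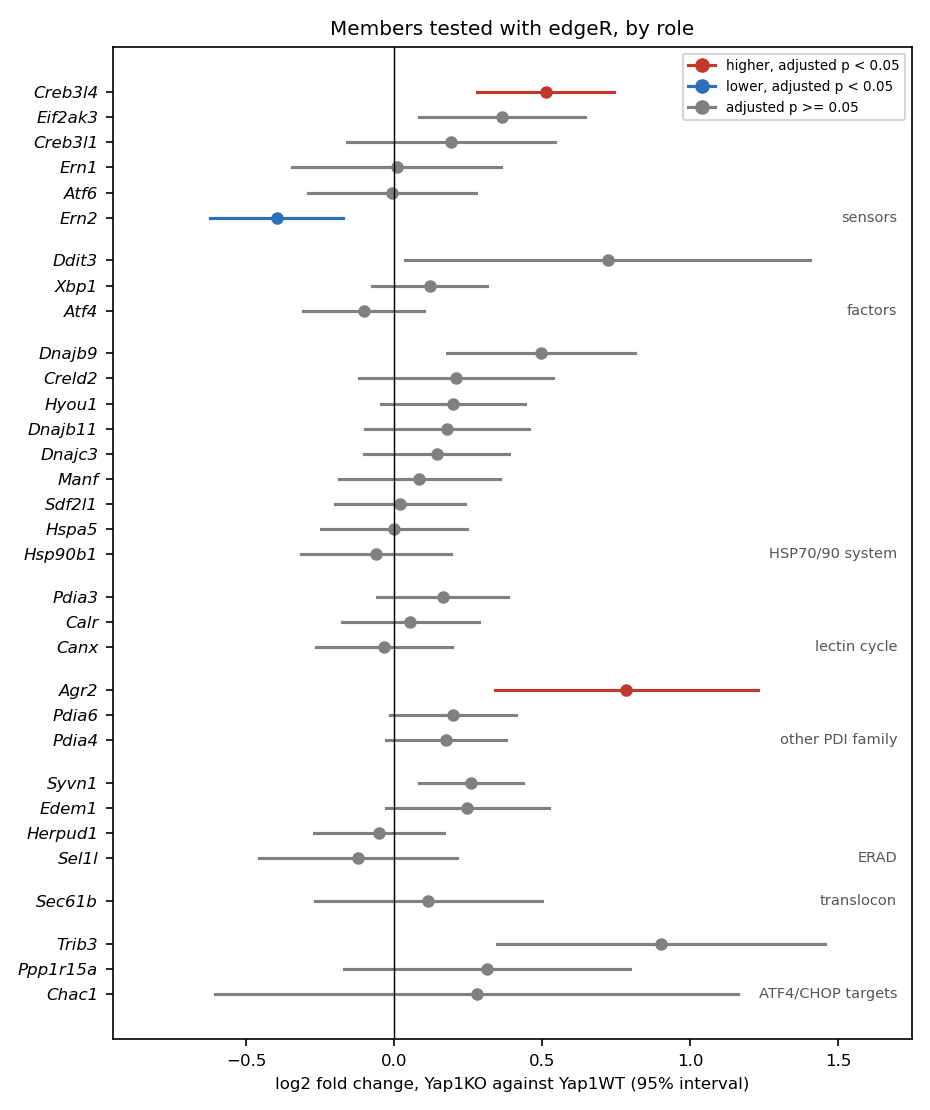
Log2 fold change of each of the 32 members tested, Yap1KO against Yap1WT, grouped by role, on the horizontal axis (points) with its 95% interval (lines). Agr2 and Creb3l4 (red, 0.79 and 0.51) and Ern2 (blue, -0.40) had an adjusted p under 0.05, and Hspa5 lay at 0.00.

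The members spanned a wide range of levels. The deposited log2 values are headed FPKM in the files and are called log2 RPKM here. On this scale, which divides by gene length and so permits comparison between genes, Agr2 was the highest member, at 12.45 ± 0.42 in Yap1KO and 11.56 ± 0.41 in Yap1WT (SD, n = 4 each). Next in Yap1WT came the chaperone genes Hspa5 at 9.63 ± 0.19 in Yap1KO and 9.51 ± 0.08 in Yap1WT, and Pdia3 at 9.61 ± 0.13 in Yap1KO and 9.36 ± 0.09 in Yap1WT. Calr followed at 9.23 ± 0.07 in Yap1KO and 9.16 ± 0.14 in Yap1WT, and Hsp90b1 at 9.03 ± 0.18 in Yap1KO and 9.02 ± 0.11 in Yap1WT. In Yap1WT the steps between neighbours among these 4 were close to the spread between mice. Chac1 was the lowest, at -0.58 ± 0.59 in Yap1KO and -0.56 ± 0.22 in Yap1WT, below Trib3 at 2.04 ± 0.17 in Yap1KO and 1.25 ± 0.30 in Yap1WT. The 33rd gene, Agr3, a close relative of Agr2, failed the filter, with 60, 21, 47 and 0 reads in the Yap1KO libraries and 29, 53, 34 and 0 reads in the Yap1WT libraries.

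**Figure D2:**
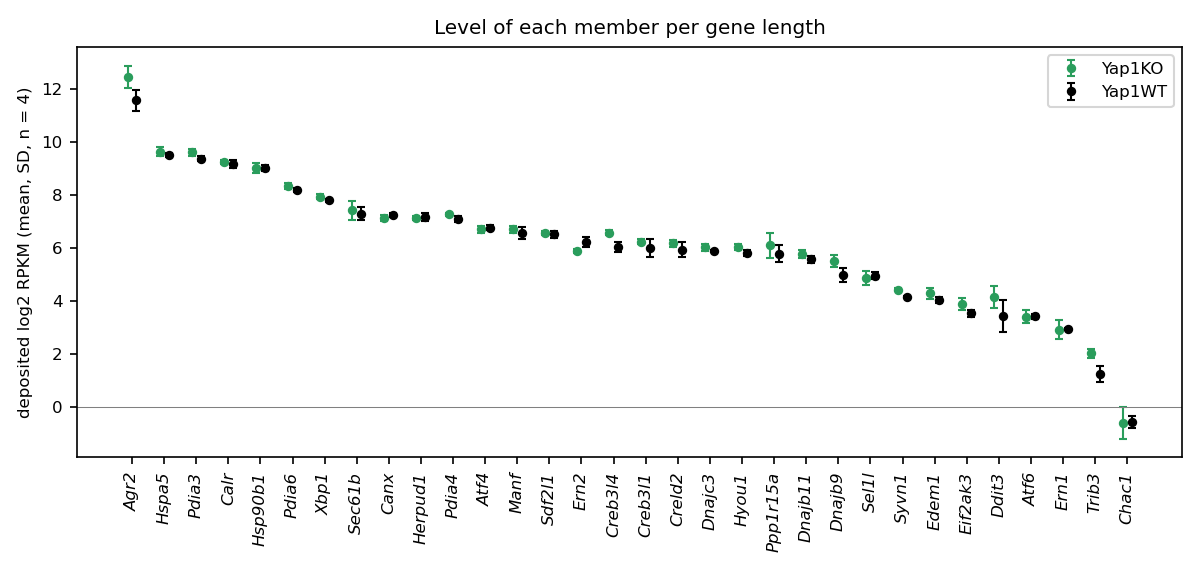
Deposited log2 RPKM (mean, with SD as bars, n = 4 each) of each member tested in Yap1KO (green, left point of a pair) and Yap1WT (black, right point), ordered by the Yap1WT mean. Agr2 stood above all other members at 12.45 ± 0.42 in Yap1KO and 11.56 ± 0.41 in Yap1WT, and Chac1 was the lowest.

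Among the sensors and membrane-bound transcription factors, one member was higher, another was lower and the remaining 4 were not called by edgeR. Creb3l4 (chr3:90237498-90244582, GRCm38), which encodes a transcription factor of the CREB3 family held in the ER membrane until it is cut, had 139, 140.0, 154 and 146 CPM in Yap1KO and 104, 96.8, 88.0 and 117 CPM in Yap1WT. Every Yap1KO mouse was above every Yap1WT mouse, and the spread within Yap1KO was small, at 145 ± 6.68 CPM (mean ± SD, n = 4). The log2 fold change was 0.51 (SE 0.10), or 1.43-fold, with an edgeR adjusted p of 0.0181. Leaving out Yap1KO replicate 4 gave an adjusted p of 0.0508 and leaving out Yap1WT replicate 3 gave 0.0612, at log2 fold changes of 0.51 and 0.45.

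Ern2 (chr7:122169893-122186239), which encodes IRE1β, the sensor form found in mucus-secreting epithelia, moved the other way. It had 172, 166, 179 and 166 CPM in Yap1KO and 254, 235, 211 and 198 CPM in Yap1WT. All Yap1KO mice lay below all Yap1WT mice and close to each other, whereas the Yap1WT mice were spread more widely. The log2 fold change was -0.40 (SE 0.10), which is 1.32-fold lower, with an edgeR adjusted p of 0.0481, just under the threshold. The call was kept without Yap1WT replicate 4 (adjusted p = 0.0394) and was lost on leaving out any 1 of the other 7 libraries, with adjusted p-values of 0.0800 to 0.126 and log2 fold changes of -0.33 to -0.42. It was also lost under upper-quartile scaling, with library sizes that left out the 20 most abundant genes, under limma-voom and limma-trend, and with no filter on low counts. Ern1, which encodes the widely expressed IRE1α, had 38.4, 21.5, 31.4 and 31.1 CPM in Yap1KO and 30.2, 29.9, 31.4 and 30.1 CPM in Yap1WT, with a log2 fold change of 0.01 and a 95% interval of -0.34 to 0.36. Per gene length Ern2 was the more abundant of the pair in both groups, at 5.88 ± 0.08 log2 RPKM in Yap1KO and 6.24 ± 0.19 in Yap1WT, where Ern1 was at 2.93 ± 0.36 in Yap1KO and 2.95 ± 0.03 in Yap1WT.

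Eif2ak3, which encodes PERK, had 74.4, 52.1, 65.2 and 74.6 CPM in Yap1KO and 55.9, 46.7, 51.3 and 52.6 CPM in Yap1WT. Yap1KO replicate 2 overlapped the Yap1WT mice and the other Yap1KO mice were above them. The log2 fold change was 0.37 (SE 0.13), with an edgeR adjusted p of 0.132. Without Yap1KO replicate 2 it was 0.47, with an adjusted p of 0.0257. Atf6, which encodes the sensor released in the Golgi, averaged 79.0 ± 13.9 CPM in Yap1KO and 79.5 ± 5.91 CPM in Yap1WT, with a log2 fold change of -0.01 and an interval of -0.29 to 0.28. Creb3l1, another membrane-bound factor that acts on secretory genes, averaged 167 ± 13.6 CPM in Yap1KO and 146 ± 33.3 CPM in Yap1WT, and its groups overlapped.

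The transcription factors downstream of the sensors were not called by edgeR. Xbp1 had 434, 446, 449 and 404 CPM in Yap1KO and 408, 384, 397 and 405 CPM in Yap1WT, a log2 fold change of 0.12 with an interval of -0.07 to 0.31. Atf4 had 163, 193, 172 and 172 CPM in Yap1KO and 177, 202, 186 and 187 CPM in Yap1WT, a log2 fold change of -0.10 with an interval of -0.31 to 0.10. For both genes the groups overlapped and the interval included 0. Ddit3, which encodes CHOP, a factor linked to cell death under prolonged stress, had 11.8, 20.4, 12.5 and 18.8 CPM in Yap1KO and 11.8, 13.2, 8.32 and 4.98 CPM in Yap1WT. Yap1KO replicates 2 and 4 were above all Yap1WT mice, replicates 1 and 3 were within their range, and the log2 fold change of 0.72 (SE 0.31) had an edgeR adjusted p of 0.217. The exons of Ddit3 share 68 bases (7.64% of its exonic length, GENCODE M21) with those of Mars on the opposite strand, and the library kit does not mark strand, so that reads there cannot be told apart. The same limit holds for 485 bases (10%) of Eif2ak3, shared with Gm43292, and 415 bases (14.7%) of Hsp90b1, shared with 1810014B01Rik. It also holds for 166 bases (6.74%) of Manf, shared with 4930524O07Rik. The deposited counts used another annotation, RefSeq, and whether these overlaps affect them was not checked.

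Genes induced by ATF4 and CHOP included the member with the highest fold change. Trib3, a pseudokinase that CHOP induces, had 7.27, 9.50, 9.79 and 7.86 CPM in Yap1KO and 4.68, 4.47, 3.11 and 6.19 CPM in Yap1WT. These were low levels, but the groups did not overlap, and the log2 fold change was 0.90 (SE 0.25), or 1.87-fold, with an edgeR adjusted p of 0.0663. It was called higher under 4 of the 19 alternatives, with adjusted p-values of 0.0117 by DESeq2, 0.0287 by limma-voom with quantile normalization, 0.0487 by limma-trend and 0.0389 by edgeR without Yap1WT replicate 4. Ppp1r15a, which encodes the phosphatase subunit GADD34 that reverses eIF2α phosphorylation, had 174, 229, 115 and 131 CPM in Yap1KO and 168, 122, 105 and 127 CPM in Yap1WT, with overlapping groups and a log2 fold change of 0.31 (interval -0.17 to 0.80). Yap1KO replicates 1 and 2, its highest values there, also had the highest sums of 14 genes induced by tissue dissociation and heat stress, at 9527 and 9635 CPM, where the sums were 6658 to 9635 CPM over all Yap1KO mice and 6505 to 7849 CPM in Yap1WT. Of those 14 genes 1 was higher in Yap1KO and 0 were lower, Fos (0.22) and Jun (0.30) being the most abundant, and their part in the values of Ppp1r15a was not tested. Chac1, which encodes a glutathione-degrading enzyme, was near the filter at 0.684, 1.20, 1.30 and 1.58 CPM in Yap1KO and 0.980, 1.07, 0.984 and 0.859 CPM in Yap1WT.

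**Figure D3:**
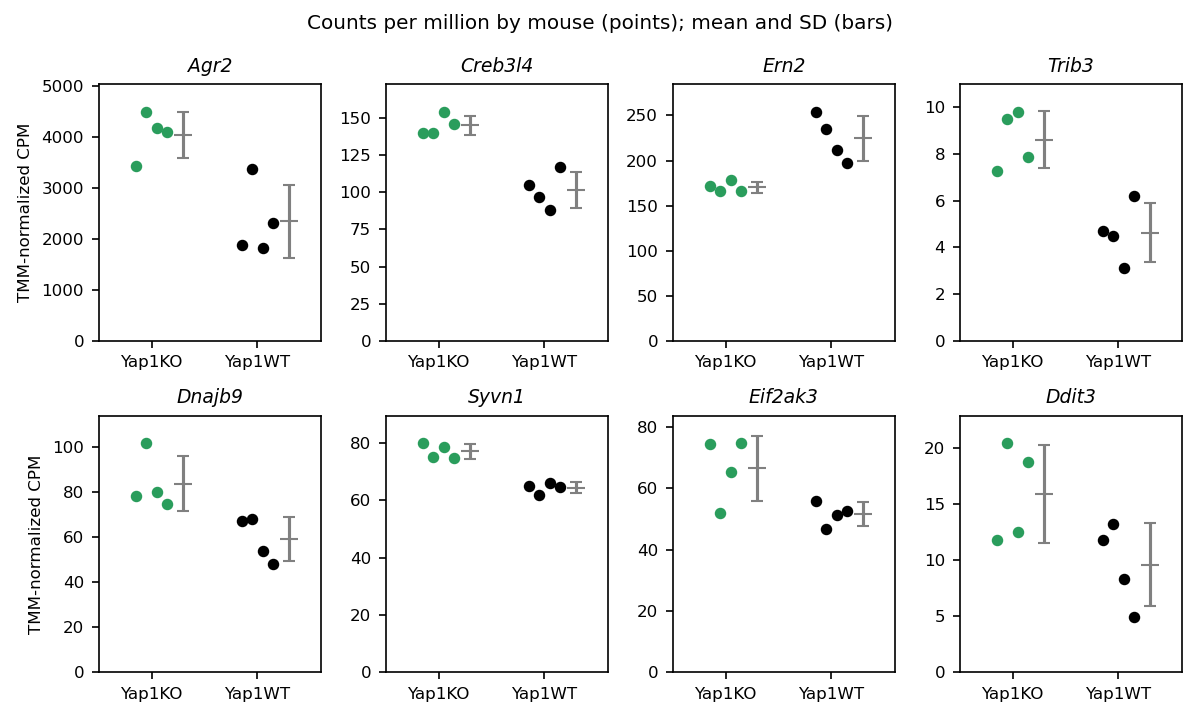
TMM-normalized CPM of 8 members in each mouse, Yap1KO (green, left) and Yap1WT (black, right), with grey bars for group means and SDs. The groups do not overlap for Agr2, Creb3l4, Ern2, Trib3, Dnajb9 and Syvn1, and they overlap for Eif2ak3 and Ddit3.

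The main luminal chaperones were abundant and their groups overlapped. Hspa5, which encodes BiP, the HSP70 chaperone of the ER and the usual marker of ER stress, had 2039, 1748, 1881 and 2088 CPM in Yap1KO and 1763, 1957, 1912 and 2124 CPM in Yap1WT. The group means were the same to 3 digits, and the log2 fold change was 0.00 with an interval of -0.25 to 0.25. Hsp90b1, the HSP90 of the ER, had 1415, 1208, 1396 and 1498 CPM in Yap1KO and 1305, 1362, 1519 and 1565 CPM in Yap1WT, a log2 fold change of -0.06 (interval -0.31 to 0.19). Neither gene showed a difference larger than the spread between mice. Of the cofactors, Dnajb9, a BiP co-chaperone known as a target of spliced XBP1, had 78.1, 102, 80.2 and 74.8 CPM in Yap1KO and 67.1, 68.0, 54.0 and 47.9 CPM in Yap1WT. Its groups did not overlap, and its log2 fold change of 0.50 (SE 0.14) had an edgeR adjusted p of 0.0774. The co-chaperones Dnajb11 (0.18) and Dnajc3 (0.14), the nucleotide exchange factor Hyou1 (0.20), and Creld2 (0.21), Manf (0.08) and Sdf2l1 (0.02), small ER proteins induced by stress, had log2 fold changes between those of Hspa5 and Dnajb9, and none was called by edgeR. Hyou1 averaged 284 ± 31.8 CPM in Yap1KO and 248 ± 19.3 CPM in Yap1WT, and Dnajc3 averaged 337 ± 40.5 CPM in Yap1KO and 305 ± 17.6 CPM in Yap1WT (SD, n = 4 each).

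Some members carry ER stress elements, which are known from chaperone genes, so a high share among members is no independent result. RefSeq promoters (GRCm38.p6, 250 bases before to 50 after the transcription start) were given for 28 members and for 27025 genes in all, and were searched on both strands. Members without a promoter sequence were Ern2, Atf6, Creb3l1, Hyou1 and Manf. The ER stress element (ERSE), taken as CCAAT and CCACG separated by 9 bases, was present in 8 of 28 members (28.6%) and in 37 of 27025 genes (0.137%). ERSE-II, taken as ATTGG, any base and then CCACG, was present in 2 members (7.14%), Dnajb11 and Herpud1, and in 12 of all genes (0.0444%). The matches are printed because they have the letters of the element that ATF6 and XBP1 are known to bind in chaperone genes. Each is written 5′ to 3′ on the strand given after its coordinates, with the conserved bases in capitals.
Calr ERSE, chr8:84847075-84847093 (+): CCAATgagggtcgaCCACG
Canx ERSE, chr11:50325800-50325818 (-): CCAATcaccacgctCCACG
Creld2 ERSE, chr15:88819520-88819538 (-): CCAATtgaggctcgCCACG
Dnajb11 ERSE-II, chr16:22857852-22857862 (+): ATTGGcCCACG
Dnajc3 ERSE, chr14:118937827-118937845 (+): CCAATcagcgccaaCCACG
Herpud1 ERSE-II, chr8:94386377-94386387 (+): ATTGGgCCACG
Hsp90b1 ERSE, chr10:86705638-86705656 (-): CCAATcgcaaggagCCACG
Hsp90b1 ERSE, chr10:86705533-86705551 (+): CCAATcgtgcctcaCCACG
Hspa5 ERSE, chr2:34772025-34772043 (+): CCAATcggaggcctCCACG
Pdia6 ERSE, chr12:17266491-17266509 (+): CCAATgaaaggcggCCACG
Syvn1 ERSE, chr19:6046532-6046550 (+): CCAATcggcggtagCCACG

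All 11 elements lay between 212 bases before and 18 bases after the start. Of these 10 members 0 were called by edgeR, against 5.87% of all genes tested (1, Syvn1, had an unadjusted p under 0.05 and was called by DESeq2), and their log2 fold changes ran from -0.06 for Hsp90b1 to 0.26 for Syvn1. Of the 37 genes with an ERSE in any promoter of the table, 21 were tested and 1 was called by edgeR, against the same 5.87%. This gene, Spats2l (log2 fold change 0.74, named after its values were seen), was higher in Yap1KO, and its call was kept in 2 of the 8 fits that left out 1 library. The part CCACG alone, which lies within both elements, was in 20 members (71.4%) and in 35.5% of all genes. The UPRE, TGACGTGG, and the ATF4/CEBP element, TGATGNAAT, were in 0 of 28 members, against 0.714% and 1.08% of all genes. The CRE core TGACGT, which lies within the UPRE, was in 4 members (14.3%) and in 8.37% of all genes. GGAATG, the core bound by the TEAD partners of YAP1, was in 4 members (14.3%), Agr3, Eif2ak3, Ern1 and Pdia6, and in 16.6% of all genes. A match in these windows is a description of the letters and not a measured binding site.

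The 250 bases before the starts of Hspa5 (chr2:34771840-34772089, plus strand) and Agr2 (chr12:35992675-35992924, plus strand) are set side by side, as those of the most used ER stress marker and of the called member with the largest change. Capitals in Hspa5 mark the CRE core and the conserved bases of its exact ERSE match, and none of the 7 motifs searched was found in Agr2. Copies of an element that differ in a conserved base were not searched for.
Hspa5: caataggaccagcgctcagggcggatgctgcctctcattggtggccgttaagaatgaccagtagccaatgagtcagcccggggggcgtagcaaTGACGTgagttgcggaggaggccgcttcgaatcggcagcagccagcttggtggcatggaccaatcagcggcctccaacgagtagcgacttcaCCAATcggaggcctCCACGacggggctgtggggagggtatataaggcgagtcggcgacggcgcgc
Agr2: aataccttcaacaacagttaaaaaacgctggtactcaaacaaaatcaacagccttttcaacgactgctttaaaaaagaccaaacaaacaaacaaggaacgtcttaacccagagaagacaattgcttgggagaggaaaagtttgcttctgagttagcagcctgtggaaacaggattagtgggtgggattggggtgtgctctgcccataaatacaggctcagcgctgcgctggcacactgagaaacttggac

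**Figure D4:**
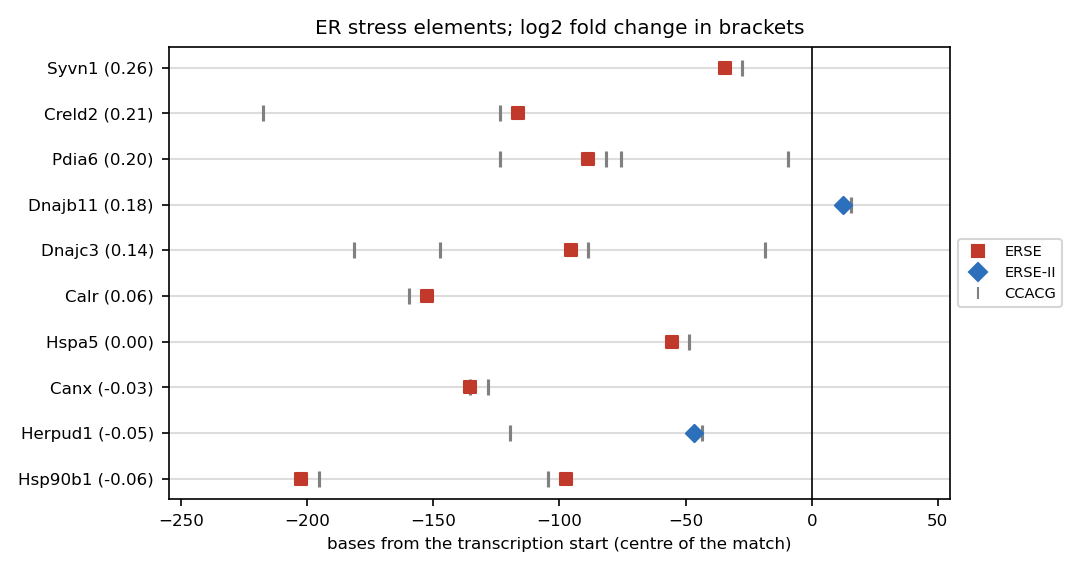
Position of ERSE (red squares), ERSE-II (blue diamonds) and CCACG (grey ticks) matches in the promoters of 10 members, in bases from the transcription start, with genes ordered by log2 fold change (in brackets). The fold changes run from 0.26 for Syvn1 to -0.06 for Hsp90b1, and none of these genes was called by edgeR.

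In the lectin cycle, which retains glycoproteins until they fold, Calr (calreticulin) had 1102, 1222, 1101 and 1114 CPM in Yap1KO and 1046, 1145, 986 and 1190.1 CPM in Yap1WT, with a log2 fold change of 0.06. Canx (calnexin) averaged 608 ± 46.5 CPM in Yap1KO and 622 ± 48.1 CPM in Yap1WT, with a log2 fold change of -0.03. The groups overlapped for both lectins. Pdia3, the disulfide isomerase that works with them, had 1933, 1895, 1952 and 1973 CPM in Yap1KO and 1675, 1713, 1639 and 1887 CPM in Yap1WT. Every Yap1KO mouse was above every Yap1WT mouse, but the log2 fold change was 0.17 (SE 0.10), with an edgeR adjusted p of 0.402.

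Of the other disulfide isomerases, Pdia4 had 405, 362, 367 and 376 CPM in Yap1KO and 340.4, 328, 311 and 358 CPM in Yap1WT, and Pdia6 had 673, 645, 683 and 743 CPM in Yap1KO and 563, 604, 585 and 637 CPM in Yap1WT. Both were without overlap and not called, at log2 fold changes of 0.18 (adjusted p = 0.326, edgeR) and 0.20 (adjusted p = 0.278, edgeR). Agr2 (chr12:35992925-36004081), the family member of mucus-secreting cells, was higher. It had 3427, 4494, 4175 and 4091 CPM in Yap1KO and 1877, 3369.5, 1826 and 2319 CPM in Yap1WT. All Yap1KO mice were above all Yap1WT mice, with Yap1KO replicate 1 close to Yap1WT replicate 2, the highest of its group. The log2 fold change was 0.79 (SE 0.20), or 1.72-fold, with an edgeR adjusted p of 0.0475. The call was kept only without Yap1WT replicate 2, at a log2 fold change of 1.01 and an adjusted p of 0.00643, and was lost on leaving out any 1 of the other 7 libraries, with adjusted p-values of 0.0632 to 0.129 and log2 fold changes of 0.69 to 0.86. It was also lost by limma-trend (adjusted p = 0.105) and by edgeR with no filter on low counts (0.0569).

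Markers of mucous cell types differed between the groups. Of the 7 mucous neck and metaplastic cell markers, 4 were higher in Yap1KO (2 without Yap1KO replicate 1 or Yap1WT replicate 3), and their sum was 7187 to 10249 CPM in Yap1KO and 4469 to 6226 CPM in Yap1WT, without overlap. Of the 7, 5 lay above 0 and 2 below, the lowest at a log2 fold change of -0.69. The most abundant of the 7 were Gkn3 and the mucin Muc6. Gkn3, which was called, averaged 3410.2 ± 410.3 CPM in Yap1KO and 2126 ± 405 CPM in Yap1WT. Muc6, which was not called, averaged 3586 ± 1050.3 CPM in Yap1KO and 1633 ± 607 CPM in Yap1WT. Of 15 foveolar (surface mucous) cell markers tested, 5 were lower and 1, Gkn3, which stands in both lists, was higher. Of the 15, 12 lay below 0 (median log2 fold change -0.62). At an unadjusted edgeR p under 0.05, 9 were lower and 3 higher. The sum of the list was mostly Tff2 (0.50), which is not particular to surface cells, and Gkn1 (-0.62, log2 fold changes). It was 87628 to 114142 CPM in Yap1KO and 82496 to 129462 CPM in Yap1WT, with overlap, and so does not follow surface markers alone. The part of these cell types in the values of Agr2, Creb3l4 and Ern2 was not tested. Of 12 B and plasma cell markers, 4 were tested, 3 of them above 0 and 1 below (median log2 fold change 0.42). Of these, 1 was called higher, Pou2af1 (log2 fold change 1.13, edgeR adjusted p = 0.0428). That call was kept in 2 of the 8 fits that left out 1 library. Other genes of the list that define plasma cells, which are rich in ER chaperones, were at or near 0. Jchain, the joining chain of antibodies, had 1.20, 2.30, 0.0516 and 0.00 CPM in Yap1KO and 0.993, 0.210, 0.391 and 0.00 CPM in Yap1WT, Mzb1 had 0.00, 0.0631, 0.00 and 0.00 CPM in Yap1KO and 0.129, 0.00, 0.145 and 0.00 CPM in Yap1WT, and Tnfrsf17 had no read in any library. The B and plasma cell list summed to 508 to 594 CPM in Yap1KO and 382 to 481 CPM in Yap1WT, without overlap. Nearly all of it was Sdc1, which epithelial cells also express, followed by Prdm1 (log2 fold changes of 0.27 and 0.56). The part of plasma cells in the values of the members was not tested.

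The ERAD members were not called by edgeR, while DESeq2 called Syvn1 higher (adjusted p = 0.0485). Syvn1, which encodes the ubiquitin ligase HRD1 of the ER membrane, had 79.8, 75.1, 78.7 and 74.7 CPM in Yap1KO and 64.9, 61.8, 66.1 and 64.5 CPM in Yap1WT. Both groups were tight and did not overlap, yet the difference was small, at a log2 fold change of 0.26 (SE 0.08), or 1.2-fold, with an edgeR adjusted p of 0.0902. Sel1l, the partner of HRD1, had 208, 141, 158 and 215 CPM in Yap1KO and 178, 180.2, 227 and 199.8 CPM in Yap1WT, a log2 fold change of -0.12 with overlapping groups. Edem1, which directs misfolded glycoproteins to degradation, averaged 114 ± 17.2 CPM in Yap1KO and 96.0 ± 8.02 CPM in Yap1WT, and Herpud1, a stress-induced ERAD scaffold, averaged 258 ± 14.5 CPM in Yap1KO and 267 ± 23.7 CPM in Yap1WT. Their log2 fold changes were 0.25 and -0.05. Sec61b, a subunit of the translocon through which new chains enter the ER, had 67.7, 115, 94.4 and 100.3 CPM in Yap1KO and 73.0, 108, 77.6 and 89.3 CPM in Yap1WT, with a log2 fold change of 0.12.

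The members did not rise and fall as one block across mice. Yap1KO replicate 2 was the lowest of its group for 17 of the 32 members, among them Hspa5, Hsp90b1, Eif2ak3 and Sel1l, and the highest for 8, among them Ddit3, Dnajb9, Ppp1r15a and Agr2. Yap1KO replicate 4 and Yap1WT replicate 4, the shallowest library of each group, were each the highest of their group for 13 members. The median deviation of the members from their group mean was small in every library, from -0.04 to 0.07 on the log2 scale.

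**Figure D5:**
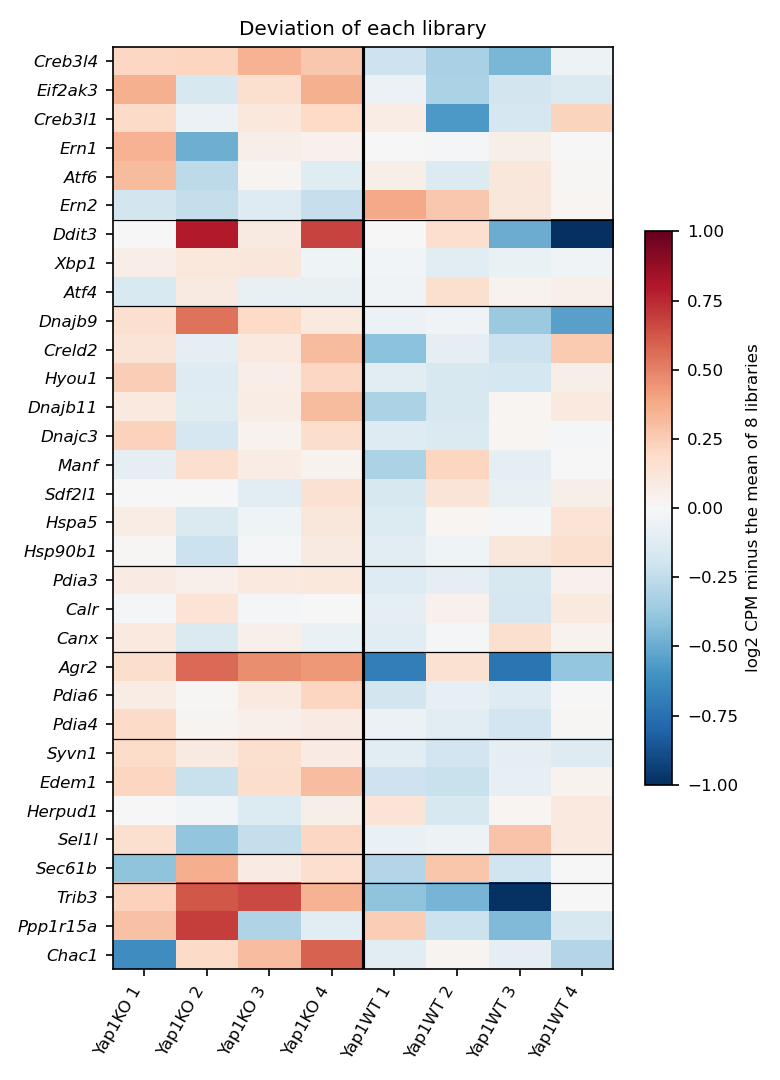
Log2 CPM of each member tested (rows, grouped by role) in each mouse (columns, Yap1KO left and Yap1WT right of the line), as the difference from the mean of all 8 libraries. Agr2, Creb3l4 and Trib3 were higher throughout Yap1KO and Ern2 was lower throughout, while Ddit3 was high in Yap1KO replicates 2 and 4 and low in Yap1WT replicate 4.

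Neighbouring pathways were read in the same fit. Of 40 other ER folding enzymes tested, 2 were higher and 1 was lower, with a median log2 fold change of 0.13. Those higher were Txndc11, a thioredoxin-like ER protein (77.9 ± 8.01 CPM in Yap1KO, 57.8 ± 1.29 CPM in Yap1WT, log2 fold change 0.43), and Sil1, a nucleotide exchange factor of BiP (72.1 ± 5.34 CPM in Yap1KO, 54.8 ± 4.41 CPM in Yap1WT, log2 fold change 0.40). Tmx4, a membrane thioredoxin, was lower, at 20.4 ± 3.60 CPM in Yap1KO and 31.3 ± 4.16 CPM in Yap1WT (log2 fold change -0.62). These 3 calls depended on single libraries: of the 8 fits that left out 1 library, 1 kept that of Txndc11 (without Yap1KO replicate 2), 0 that of Sil1 and 2 that of Tmx4 (without Yap1KO replicate 3 or Yap1WT replicate 4), with adjusted p-values of up to 0.0844, 0.131 and 0.153. By edgeR, 0 of 33 other ERAD genes and 0 of 51 genes of translocation and N-glycosylation were called. At an unadjusted p under 0.05, 2 and 4 of them were higher and 0 were lower in either list, and none was called under any of the 19 alternatives. The fold changes of 22 of the 33 and 37 of the 51 lay above 0, with a median log2 fold change of 0.08 in each list. The most abundant were Os9 (0.18) and Sel1l3 (0.13) of the ERAD list and Rpn1 (0.08) and Rpn2 (0.24) of the glycosylation list, given as log2 fold changes. Of 47 genes of vesicle traffic between ER and Golgi, 1 was higher, the cargo receptor Tmed3 (150.4 ± 8.92 CPM in Yap1KO, 112 ± 12.0 CPM in Yap1WT), and 39 lay above 0, with a median of 0.10. The call of Tmed3 was lost in each of the 8 fits that left out 1 library, with adjusted p-values of 0.0518 to 0.108.

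Larger changes were found among genes that ATF4 and other stress factors share. Of 45 other targets of ATF4 and the integrated stress response tested, 5 were higher and 1 was lower, and their median log2 fold change was 0.03. Gdf15, a stress cytokine, had 35.7, 17.3, 29.7 and 19.3 CPM in Yap1KO and 2.63, 2.98, 1.07 and 1.83 CPM in Yap1WT, a log2 fold change of 3.59 (SE 0.36) with an edgeR adjusted p of 0.000488. Sesn2, an inhibitor of mTORC1, had 28.7, 16.5, 30.1 and 29.5 CPM in Yap1KO and 10.4, 7.29, 6.73 and 5.91 CPM in Yap1WT (log2 fold change 1.79), and Ddit4, another mTORC1 inhibitor, averaged 249.9 ± 25.3 CPM in Yap1KO and 94.4 ± 25.7 CPM in Yap1WT (1.40). Bbc3, which encodes the pro-apoptotic protein PUMA, averaged 17.0 ± 1.94 CPM in Yap1KO and 6.43 ± 0.973 CPM in Yap1WT (1.40). Nupr1, a stress-induced chromatin protein named here after its values were seen, completed the 5 at 98.5 ± 20.3 CPM in Yap1KO and 59.4 ± 13.5 CPM in Yap1WT (0.73). The call of Nupr1 was kept in 1 of the 8 fits that left out 1 library, and those of the other 4 in all 8. In 6 of the 45 genes, these 5 among them, every Yap1KO mouse was above every Yap1WT mouse, against 7.19% of all genes. In 2 every Yap1KO mouse was below, against 6.01%. The 5 were picked by their calls in these same values. Gdf15, Sesn2, Ddit4 and Bbc3 are also known targets of p53, and whether ATF4, p53 or another factor underlies the values was not tested. The gene that was lower, Stc2, a secreted glycoprotein induced by PERK signalling, averaged 8.53 ± 3.02 CPM in Yap1KO and 48.4 ± 14.03 CPM in Yap1WT, a log2 fold change of -2.51 (SE 0.29) with an edgeR adjusted p of 0.000954. Of 29 other sensors and regulators of the response, 1 was higher, the apoptosis effector and p53 target Bax (99.2 ± 10.1 CPM in Yap1KO, 39.3 ± 5.11 CPM in Yap1WT, log2 fold change 1.33), whose call was kept in all 8 such fits, as was that of Stc2. These pathway lists were counted against the same background, 3.53% of all genes higher and 2.34% lower.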

How the data were processed

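RNA of EpCAM+ tumor cells from 8 mice (4 Yap1KO, 4 Yap1WT) was sequenced as 1 unstranded TruSeq library per mouse. Per the methods, the authors aligned paired-end reads to GRCm38/mm10 with Subread and deposited raw read counts per gene from featureCounts against its inbuilt RefSeq annotation, with versions not given in the sources used here. The deposited log2 values are FPKM per the file headers and log2 RPKM in the study's text, quantile normalized by the authors with limma. How the authors scaled them to gene length is not described, and they served for levels and 1 alternative. The 6 count columns matching no sample were not used, and 1277 entries without a symbol (0.552 to 0.789% of counts) were left out.

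Counts were analysed with edgeR 4.0.16 in R 4.3.3, using the quasi-likelihood F test with TMM factors and Benjamini-Hochberg adjustment at 0.05. Genes over 0.5 CPM in at least 6 libraries were tested, and pseudogenes entered only where the deposited log2 table lists them. Alternatives used DESeq2 1.42.0, limma 3.58.1, other scalings, filters and blocks, and left out each library. The script was tested on simulated data. RefSeq promoters were searched as exact strings and gene positions come from RefSeq (GRCm38.p6), exon overlaps from GENCODE M21. Figures were drawn with matplotlib 3.10.9.

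Counts of the 8 matched libraries ran from 18229945 to 77483047. The members and all gene lists were chosen with earlier results of these data known. By the rule for names, the text gives every member, up to 4 called genes in each direction of a pathway list by smallest p (the 2 most abundant where none was called), the 2 most abundant markers of a marker list it describes, and Yap1. Epcam, Cldn4, Pou2af1, Jchain, Mzb1 and Tnfrsf17 were named beyond it, after their values were seen.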

Additional observations from a re-analysis of the deposited data

Results flagged for a closer look

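Among the CPM values of the 32 members tested, in 64 groups of 4 mice, 1 value stood apart from its group by Dixon's test. Calr in Yap1KO replicate 2 was at 1222 CPM, where the other 3 Yap1KO mice were at 1101 to 1114 CPM, and the gap was 0.889 of the group's range. By chance about 1 group in 20 passes this limit.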

How the results depend on the processing

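The counts and fold changes of the members, of all genes and of the pathway lists were recomputed under 19 alternatives. The marker list counts, the called genes of these lists, Yap1 and Spats2l were added to them after seeing the data. No called member changed sign under any alternative. Creb3l4 kept its call in 17 of 19, Agr2 in 10 and Ern2 in 7, and the members' median log2 fold change stayed between 0.13 and 0.21. With DESeq2, 5 members were higher (Dnajb9, Syvn1 and Trib3 in addition) beside 858 higher and 587 lower over all genes. With no filter, 1 member was higher and 0 were lower. No member was lower (0) under upper-quartile factors, library sizes without the 20 most abundant genes, limma-voom or limma-trend, where Ern2 had adjusted p-values of 0.0579, 0.0628, 0.0772 and 0.0868. Leaving out 1 library at a time gave 0 to 2 members higher and 0 to 1 lower, and over all genes 247 to 485 higher and 158 to 298 lower, the fewest without Yap1WT replicate 3. The counts of pathway lists changed by at most 3, but small ones were often lost: the 2 other folding enzymes higher became 0 in 6 of the 8 fits without 1 library, and Tmx4 and Tmed3 lost their calls in 6 and in all 8. Under all 19 alternatives the called direction held for each of the 29 genes so added, of which 15 kept their call throughout.

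The labels give the same replicate numbers to both groups, but same-numbered mice did not deviate together in every pair (correlations of 0.04, 0.35, 0.05 and 0.15), so the numbers were not taken as pairs. Replicates 1 and 2 of both groups share a run of mouse numbers, and replicates 3 and 4 another. Between Yap1KO and Yap1WT mice, correlations were 0.04 to 0.35 within a run and -0.24 to 0.07 between runs. The main fit held no block for the run. With the replicate block, 4 members were higher (Dnajb9 and Eif2ak3 in addition) and 1 was lower, beside 755 higher and 552 lower over all genes. With a block for the run of mouse numbers, 3 members were higher and 1 was lower. Over all genes 598 were then higher and 451 lower, against 476 and 316 in the main fit. Whether the fold change of Yap1KO against Yap1WT differed between the runs was tested as an interaction. No member passed adjustment (edgeR adjusted p of 0.9997 for each of the 3 called). With 2 mice per group in a run, this test could detect only large differences. A difference between the runs that both groups share was not tested.

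Depth and 4 mice a group limit small changes. Counting intervals were not computed, since the spread between mice was the error used.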
